A study of Mus musculus with 8 samples.

Results

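The mRNAs of 9 enzymes that make serine and move its one-carbon unit onto folate were examined in livers whose hepatocytes lack the cytosolic thioredoxin reductase Txnrd1. The genes are Phgdh, Psat1, Psph, Shmt1, Shmt2, Mthfd1, Mthfd2, Aldh1l1 and Gldc. They were chosen by their role in the pathway, with earlier results of these data known. Every probe set annotated to one of these 9 genes was taken, which gave 25 of the 45037 probe sets tested. Of these, 23 carry the symbol of 1 gene, and their mean log2 value is used as the value of a gene, so the members are 9 of 18193 genes. The other 2 probe sets name Phgdh together with a gene model, Gm8096 or Gm6756, and are given on their own. In the GRCm38.p6 assembly the genes lie on chromosome 3 (Phgdh), 19 (Psat1 and Gldc), 5 (Psph), 11 (Shmt1), 10 (Shmt2), 12 (Mthfd1) and 6 (Mthfd2 and Aldh1l1).

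Livers came from 8 young adult males, and the RNA of each went on its own Affymetrix mouse expression array. Animals 69, 72, 73 and 81 were txnrd1 cond/- albCre1, with 1 conditional and 1 null allele of txnrd1 and a Cre transgene that the albumin promoter drives in hepatocytes, and their livers are called txnrd1-/-. Animals 70, 71, 80 and 82 were txnrd1 cond/+ albCre0, with 1 conditional and 1 wild-type allele and no Cre, and their livers are called txnrd1cond/+. The groups differ in the transgene as well as in the second txnrd1 allele, all mice had lived alone for 10 days before an afternoon harvest, and the other cells of a txnrd1-/- liver keep the conditional allele. The values are linear ratios of each probe set to about its median over the 8 arrays, so a ratio of 1 is the middle of the series, the levels of different mRNAs cannot be compared, and a log2 ratio of 0 is that same middle. In whole liver, fewer cells of a type and less RNA per cell cannot be told apart.

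The 3 probe sets of Txnrd1 did not run one way: their log2 fold changes, txnrd1-/- over txnrd1cond/+, were 1.11, -0.71 and -0.41. The first was higher and the second lower in txnrd1-/- livers past the study's thresholds, which are a 1.5-fold difference with an unadjusted p of at most 0.05, and none of the 3 passed after adjustment. No source used here says whether they lie inside the excised stretch of txnrd1, so they are no check of the genotype labels. The SD of the log2 ratio over genes was between 0.178 (animal 69) and 0.342 (animal 82), so the arrays did not scatter equally. In the marker lists of 7 liver cell types, 0 measured genes passed the study's thresholds, and the median log2 fold changes of the lists lay between -0.12 and -0.01. Of 8 pericentral and 6 periportal hepatocyte markers 1 passed them, the ammonium transporter Rhbg (log2 0.87). Ratios do not show whether a marker is present or absent.

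Serine is made from the glycolytic intermediate 3-phosphoglycerate, and the hydroxymethyl group of serine is the main source of one-carbon units in most cells. Serine hydroxymethyltransferase hands that carbon to tetrahydrofolate and leaves glycine; the folate-bound carbon is then oxidized or reduced for use in purines, thymidylate and methionine, and full oxidation yields NADPH. The pathway runs in parallel in the cytosol and the mitochondria. Liver is a major organ of folate storage and of glycine breakdown. Serine is also a precursor of cysteine, and so of glutathione, and several of these genes are known targets of ATF4, a factor of the amino acid stress response, through which the antioxidant factor Nrf2 raises them in some human cancer cells.

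No member passed the test between the genotypes. By limma with Benjamini-Hochberg adjustment over all probe sets, 12 of 45037 (0.0266%) were called, at an adjusted p of at most 0.05 and 1.5-fold, and 0 of the 25 member probe sets were. At the study's thresholds 253 probe sets passed (0.562%), and again 0 of 25 members did. Over genes, 15 of 18193 (0.0824%) were called and 119 (0.654%) passed the study's thresholds, with 0 of the 9 members in either count. An unadjusted p of at most 0.05 was reached by 0 member probe sets and 0 member genes, and the smallest were 0.1 and 0.097. The ratios of the 2 genotypes overlapped for each of the 25 probe sets. The shares of all probe sets and genes that overlap, or that reach that p, were not counted. These counts therefore do not set the members apart from the rest of the array.

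The sizes were small beside the scatter for most members. Probe-set log2 fold changes ran between -0.22, for a Phgdh probe set, and 0.62, for a Psat1 probe set. The median over the 9 genes was 0.05, against 0.00 over all genes, and the median size without sign was 0.11, against 0.08. In 8 of the 9 genes the 95% interval of the difference lay within 2-fold either way, the exception being Psat1, and in 4 it lay within 1.5-fold. The adjusted p was 1 for all 25 probe sets.

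**Figure D1:**
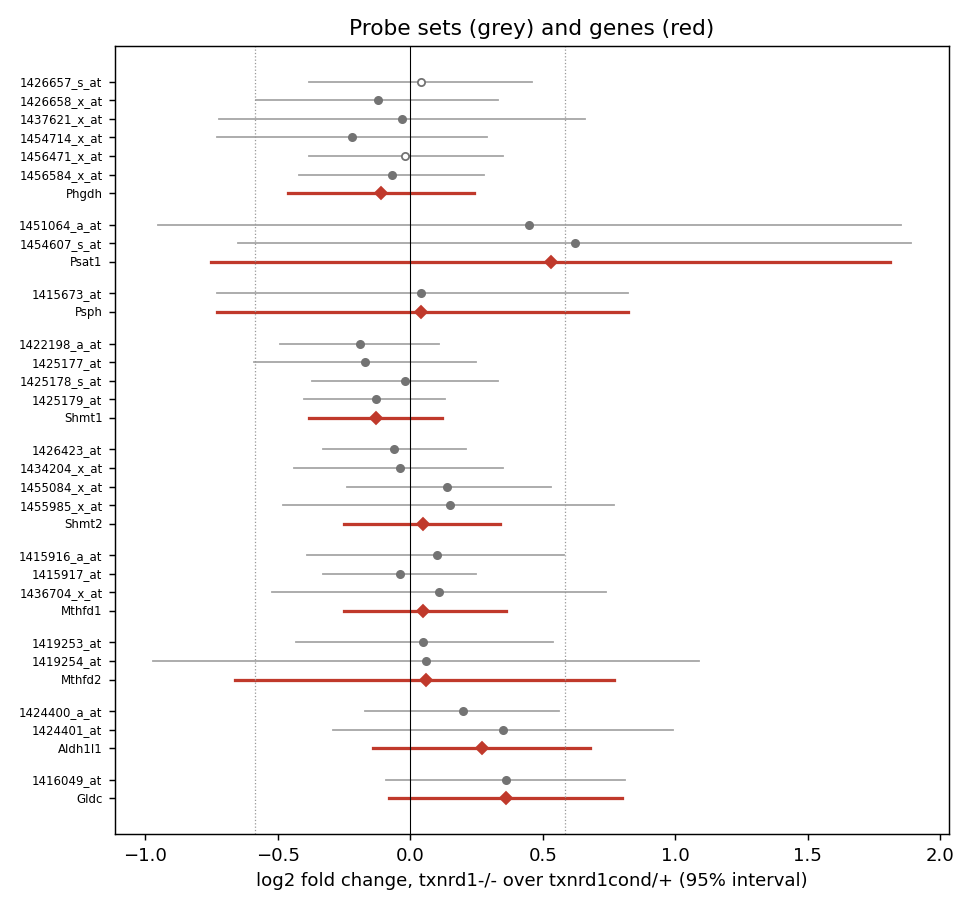
Log2 fold change, txnrd1-/- over txnrd1cond/+ (x axis), of each member probe set (grey, named by its array identifier; open circles are the 2 probe sets that also name a gene model) and of each gene (red diamonds), with 95% intervals from limma on 4 livers per genotype. Dotted lines mark 1.5-fold in each direction; every interval crosses 0, and those of Psat1 are the widest.

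Among the serine synthesis genes, Phgdh encodes the dehydrogenase that oxidizes 3-phosphoglycerate and commits it to serine. Its gene ratio was 0.909, 0.873, 0.973 and 1.34 in txnrd1-/- animals 69, 72, 73 and 81, against 1.04, 0.937, 1.29 and 1.12 in txnrd1cond/+ animals 70, 71, 80 and 82. Animal 81 was the highest of all and the other txnrd1-/- livers lay at the low end, within reach of the controls. The means were 1.02 ± 0.213 in txnrd1-/- livers and 1.10 ± 0.148 in txnrd1cond/+ livers (SD, n = 4 each), with a log2 fold change of -0.11 (SE 0.16, limma adjusted p = 1, exact 2-sided permutation p = 0.54, 95% interval -0.46 to 0.24). All 6 Phgdh probe sets are of kinds (suffix x_at or s_at) that can bind more than 1 transcript, and the pairwise Pearson r among the 4 that name Phgdh alone ran between -0.24 and 0.80 over the 8 livers, so the Phgdh value is uncertain.

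Psat1, the phosphoserine aminotransferase of the middle step, varied most. Its ratio was 0.924, 0.522, 1.19 and 4.12 in txnrd1-/- animals 69, 72, 73 and 81, against 0.999, 0.750, 1.51 and 0.475 in txnrd1cond/+ animals 70, 71, 80 and 82. Animal 81 stood alone at the top, 8.68-fold above the lowest liver (animal 82), while animal 72 of the same genotype was next to the bottom. The means were 1.69 ± 1.64 in txnrd1-/- livers and 0.935 ± 0.442 in txnrd1cond/+ livers (SD, n = 4 each), and the fitted difference was 1.45-fold (log2 0.53, SE 0.57, limma adjusted p = 1, exact 2-sided permutation p = 0.54, 95% interval 0.596-fold to 3.51-fold). Without animal 81 the log2 fold change was -0.04, so 1 liver set its direction. Both Psat1 probe sets showed the same liver as highest, at ratios of 3.93 and 4.33, and agreed over the 8 livers with r = 0.83.

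Psph, the phosphatase that releases free serine, was read by 1 probe set. Its ratio was 0.816, 0.590, 1.22 and 1.48 in txnrd1-/- animals 69, 72, 73 and 81, against 1.16, 0.830, 1.45 and 0.551 in txnrd1cond/+ animals 70, 71, 80 and 82. The genotypes covered nearly the same range, with animals 81 and 80 high and animals 72 and 82 low. The log2 fold change was 0.04 (SE 0.34, limma adjusted p = 1, exact 2-sided permutation p = 0.83, 95% interval -0.73 to 0.82).

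**Figure D2:**
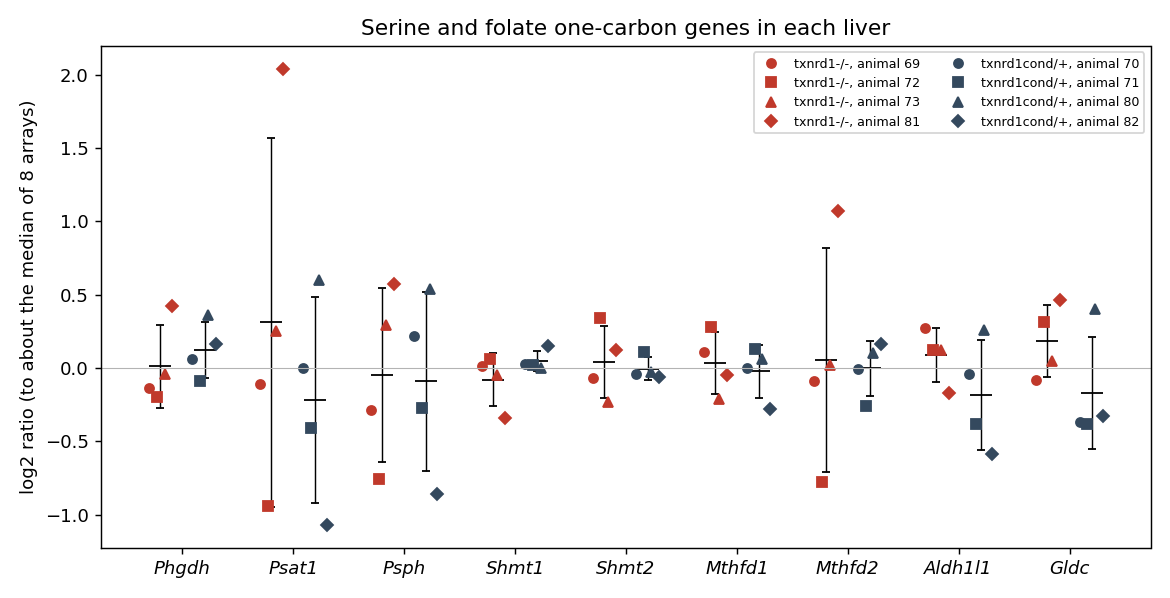
Log2 ratio (y axis) of each member gene in each liver, txnrd1-/- (red) left of txnrd1cond/+ (dark blue); each symbol is 1 animal and bars are the mean ± SD of 4 livers. Psat1 reached 2.04 in txnrd1-/- animal 81 and -1.07 in txnrd1cond/+ animal 82, whereas Shmt1 stayed between -0.34 and 0.15.

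The sequence just before the start of the gene is shown for Phgdh and Psat1, which were both highest in animal 81. It is also shown for Shmt1, which was lowest there, and for Asns, an ATF4 target that is no member. Psph, Mthfd2 and Gldc were highest in animal 81 too, and their sequences are not shown. All 9 members matched RefSeq's table of gene starts (GRCm38.p6), in windows of 250 bases before to 50 after the start. The letters searched, on both strands, were the antioxidant response element core TGACNNNGC, held by 12.4% of 32851 such windows, an ATF4 site core TGATGNAA (3.97%), and the CCAAT box CCAAT (37.4%, with 3 or more copies in 3.37%). Below are the 150 bases before the start, 5′ to 3′ on the gene's strand, for Phgdh (chr3:98339970-98340119, minus strand), Psat1 (chr19:15925060-15925209, minus strand) and Shmt1 (chr11:60811266-60811415, minus strand), and 30 bases for Asns (chr6:7693210-7693239, minus strand), with the matched letters in capitals.
Phgdh: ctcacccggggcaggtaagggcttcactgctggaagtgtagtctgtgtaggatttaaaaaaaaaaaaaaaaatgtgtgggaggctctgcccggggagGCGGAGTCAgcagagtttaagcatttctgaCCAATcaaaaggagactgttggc
Psat1: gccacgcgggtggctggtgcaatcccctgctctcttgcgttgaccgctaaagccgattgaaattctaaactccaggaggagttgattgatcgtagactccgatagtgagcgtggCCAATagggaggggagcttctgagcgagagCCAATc
Shmt1: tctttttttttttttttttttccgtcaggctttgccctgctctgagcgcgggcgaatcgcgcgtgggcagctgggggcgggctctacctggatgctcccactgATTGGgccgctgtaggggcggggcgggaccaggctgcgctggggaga
Asns: agccacaTGATGAAActtcccgcacgcgtt

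In the Phgdh window the capitals are an antioxidant element match on the opposite strand (bases -53 to -45 from the start) and a CCAAT box (-23 to -19); a second CCAAT box lies farther out, at -193. The Psat1 window holds 3 CCAAT boxes, 2 of them shown, and neither of the other motifs. Another listed start of Psat1, not shown, had no match to any of these motifs. Shmt1 has 1 CCAAT box on the opposite strand, and in Asns the capitals are the ATF4 core, at -23 to -16. The Asns window also holds an antioxidant element match outside the bases shown, at -172 to -164 on the opposite strand. Of the other members, Psph holds an antioxidant element match after its start (5 to 13) and Mthfd2 holds 3 CCAAT boxes. The ATF4 core letters were in none of the 9 member windows, which says only that these letters are not there.

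Shmt1 and Shmt2 split serine and Gldc splits glycine. Shmt1 is the serine hydroxymethyltransferase of the cytosol, and its ratio was 1.01, 1.04, 0.967 and 0.790 in txnrd1-/- animals 69, 72, 73 and 81, against 1.02, 1.01, 1.00 and 1.11 in txnrd1cond/+ animals 70, 71, 80 and 82. It scattered least of the 9 genes: the livers other than animal 81 lay between 0.967 and 1.11. The log2 fold change was -0.13 (SE 0.11, limma adjusted p = 1, exact 2-sided permutation p = 0.23, 95% interval -0.38 to 0.12). Its 4 probe sets gave differences between -0.19 and -0.02, all in the same direction, but their pairwise r over the 8 livers ran between -0.35 and 0.90, so the Shmt1 pattern over livers is uncertain as well.

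Shmt2, the mitochondrial form, had ratios of 0.955, 1.27, 0.853 and 1.08 in txnrd1-/- animals 69, 72, 73 and 81, against 0.972, 1.08, 0.981 and 0.961 in txnrd1cond/+ animals 70, 71, 80 and 82. The txnrd1-/- livers enclosed the controls on both sides. The log2 fold change was 0.05 (SE 0.13, limma adjusted p = 1, exact 2-sided permutation p = 0.80, 95% interval -0.25 to 0.34), and the 4 probe sets disagreed in sign, with pairwise r between -0.43 and 0.63. The high value of animal 72 was carried mostly by 1 of the 4, at a ratio of 2.21 there and between 0.781 and 1.19 in the other livers.

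Gldc encodes the decarboxylase of the mitochondrial glycine cleavage system, which passes a carbon of glycine to folate, and it had the smallest p among the members. Its ratio was 0.949, 1.24, 1.04 and 1.38 in txnrd1-/- animals 69, 72, 73 and 81, against 0.772, 0.766, 1.32 and 0.796 in txnrd1cond/+ animals 70, 71, 80 and 82. All 4 txnrd1-/- livers were above 3 of the 4 controls, and control animal 80 was above 3 of the 4 txnrd1-/- livers. The means were 1.15 ± 0.193 in txnrd1-/- livers and 0.912 ± 0.269 in txnrd1cond/+ livers (SD, n = 4 each), a 1.28-fold difference (log2 0.36, SE 0.20, limma adjusted p = 1, exact 2-sided permutation p = 0.20, 95% interval 0.947-fold to 1.74-fold). The smallest p an exact permutation test of 4 against 4 livers allows is 0.029. Without animal 80 the log2 fold change was 0.55 (limma unadjusted p = 0.0043, adjusted p = 1). Leaving out any other single animal gave unadjusted p between 0.065 and 0.23, and leaving out animals 81 and 82 gave a log2 fold change of 0.21.

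Mthfd1, the cytosolic enzyme that interconverts the folate-bound carbons in 3 activities, had ratios of 1.08, 1.22, 0.865 and 0.968 in txnrd1-/- animals 69, 72, 73 and 81, against 0.997, 1.10, 1.05 and 0.825 in txnrd1cond/+ animals 70, 71, 80 and 82. The 2 genotypes overlapped, and the pairwise r among its 3 probe sets ran between -0.25 and 0.60. The log2 fold change was 0.05 (SE 0.14, limma adjusted p = 1, exact 2-sided permutation p = 0.69, 95% interval -0.25 to 0.36).

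Mthfd2, the mitochondrial dehydrogenase and cyclohydrolase, had ratios of 0.939, 0.583, 1.01 and 2.10 in txnrd1-/- animals 69, 72, 73 and 81, against 0.994, 0.835, 1.07 and 1.12 in txnrd1cond/+ animals 70, 71, 80 and 82. The txnrd1-/- livers held both the highest and the lowest value, and the SD of their log2 ratios was 0.76, against 0.19 in txnrd1cond/+ livers. The log2 fold change was 0.06 (SE 0.32, limma adjusted p = 1, exact 2-sided permutation p = 0.86, 95% interval -0.66 to 0.77), and it was -0.28 without animal 81 and 0.33 without animal 72.

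Aldh1l1, the cytosolic formyltetrahydrofolate dehydrogenase, which oxidizes the one-carbon unit to CO2 and yields NADPH, had ratios of 1.21, 1.08, 1.08 and 0.889 in txnrd1-/- animals 69, 72, 73 and 81, against 0.969, 0.770, 1.20 and 0.665 in txnrd1cond/+ animals 70, 71, 80 and 82. Animals 69, 72 and 73 were above 3 of the 4 controls, and control animal 80 was above every txnrd1-/- liver but animal 69. The difference was 1.21-fold (log2 0.27, SE 0.18, limma adjusted p = 1, exact 2-sided permutation p = 0.23, 95% interval 0.909-fold to 1.60-fold). Both probe sets ran the same way, at 0.20 and 0.35, though they agreed only loosely over the livers (r = 0.34).

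The wide differences lay between animals of the same genotype. The SD of the log2 ratio within a genotype was 1.02 for Psat1, 0.60 for Psph and 0.56 for Mthfd2, against a median of 0.20 over all genes, and only 0.44%, 1.97% and 2.71% of genes had a larger one. Shmt1 (0.14) and Shmt2 (0.18) lay below that median. Without a floor on signal, the comparison takes in genes that liver does not express.

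Some pairs of members followed each other. Over the 8 livers the log2 ratios of Psat1 and Psph followed each other (Pearson r = 0.87, exact permutation p = 0.00062, adjusted p = 0.013 over 36 member pairs; Spearman rho = 0.98, p = 0.00040, adjusted p = 0.014), and r was 0.96 without animals 81 and 82. Phgdh followed Mthfd2 (r = 0.83, exact permutation p = 0.00074, adjusted p = 0.013; rho = 0.93, p = 0.0022, adjusted p = 0.04), with r = 0.80 without animals 80 and 81. Shmt1 ran against Psat1 (r = -0.94, exact permutation p = 0.0012, adjusted p = 0.014; rho = -0.90, p = 0.0046, adjusted p = 0.055), with r = -0.70 without animals 81 and 82. These were the 3 member pairs whose r passed adjustment. The median r of the 36 pairs was -0.02, so the 9 genes did not move as one set, and the pairs were singled out after their values were seen.

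**Figure D3:**
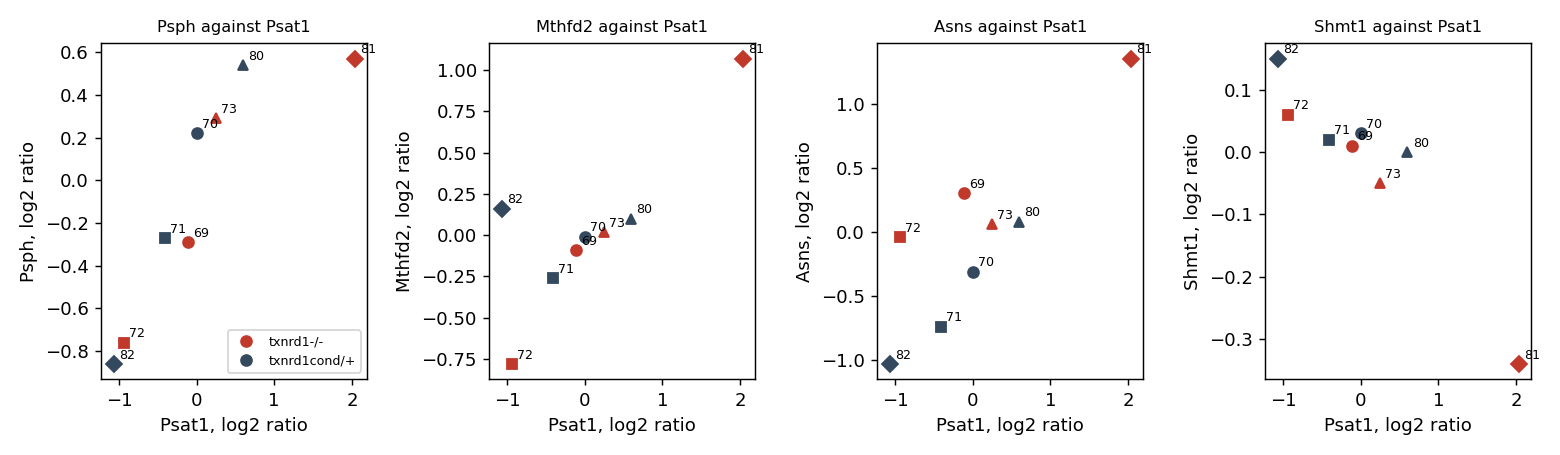
Log2 ratios of Psph, Mthfd2, Asns and Shmt1 (y axes) against that of Psat1 (x axes) in 8 livers, txnrd1-/- in red and txnrd1cond/+ in dark blue, numbered by animal. Animal 81 lies at the far right of each panel at a Psat1 value of 2.04, and animals 72 and 82, one of each genotype, lie at the left.

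Other pairs did not pass adjustment. Phgdh and Psat1 had r = 0.70 (exact permutation p = 0.047, adjusted p = 0.24) and rho = 0.60 (exact permutation p = 0.13, adjusted p = 0.53). Their r was -0.12 without animals 80 and 81, 0.42 without animal 81 alone and 0.82 without animals 81 and 82. That relation thus depended on which livers were left out. Psat1 and Mthfd2 had r = 0.82 (exact permutation p = 0.025, adjusted p = 0.18; rho = 0.50, p = 0.22, adjusted p = 0.60), and r was 0.94 without animals 81 and 82 but 0.45 without animal 81 alone. Psph and Mthfd2 had r = 0.61 (exact permutation p = 0.098, adjusted p = 0.35; rho = 0.48, p = 0.24, adjusted p = 0.62; r = 0.69 without animals 72 and 82). The mean log2 ratio of Phgdh, Psat1 and Psph was -0.18, -0.63, 0.17 and 1.01 in txnrd1-/- animals 69, 72, 73 and 81, against 0.09, -0.26, 0.50 and -0.59 in txnrd1cond/+ animals 70, 71, 80 and 82. The genes whose log2 ratios were most like this mean were Zbtb18 (r = 0.99), Nedd4 (r = 0.98) and Rab35 (r = 0.98) among all genes over the 8 livers. They were picked for the highest r to this mean out of all genes, so the height of r follows from the choice. Whether they share a control with this mean was not tested.

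Measures of the arrays moved with this mean too. It ran against the log2 ratio of the 3′ to the 5′ control probe sets of beta-actin (r = -0.94, exact permutation p = 0.0005, adjusted p = 0.013 over 30 relations; rho = -0.95, p = 0.0011, adjusted p = 0.034), and r was -0.89 without animals 72 and 81. That actin measure was -0.02, 0.09, -0.10 and -0.23 in txnrd1-/- animals 69, 72, 73 and 81, against -0.16, 0.05, -0.17 and 0.03 in txnrd1cond/+ animals 70, 71, 80 and 82. Each control probe set is itself a ratio to about its median over the arrays. The measure thus ranks the livers and does not give the absolute 3′ to 5′ ratio of any of them. The same measure for Gapdh gave r = -0.65 (exact permutation p = 0.079, adjusted p = 0.19; rho = -0.55, p = 0.17, adjusted p = 0.32; r = -0.30 without animals 71 and 81). The first component of all genes, which holds 34.6% of the variance, gave r = 0.72 (exact permutation p = 0.05, adjusted p = 0.17; rho = 0.67, p = 0.083, adjusted p = 0.25), and r was 0.35 without animals 72 and 82. Taken singly against the actin measure, Psat1 had r = -0.88 (exact permutation p = 0.00089, adjusted p = 0.013). Psph had r = -0.93 (exact permutation p = 0.0032, adjusted p = 0.032). Their rho, -0.90 and -0.86, did not pass (exact permutation test, adjusted p = 0.068 and 0.11). The r of Phgdh (-0.76), Mthfd2 (-0.77) and Shmt1 (0.70) did not pass adjustment. The part of these measures in the pattern, and in the pairs of members above, was not tested.

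Animal numbers fall into the ranges 69 to 73 and 80 to 82, and no source used here says what they stand for. Within 69 to 73 the Psat1 log2 ratio differed by -0.06, txnrd1-/- minus txnrd1cond/+, and within 80 to 82, where animal 81 is the only txnrd1-/- liver, by 2.28. For Mthfd2 these values were -0.15 and 0.94. Gldc differed by 0.47 and 0.43, the same direction in both ranges, and Aldh1l1 by 0.38 and -0.01.

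**Figure D4:**
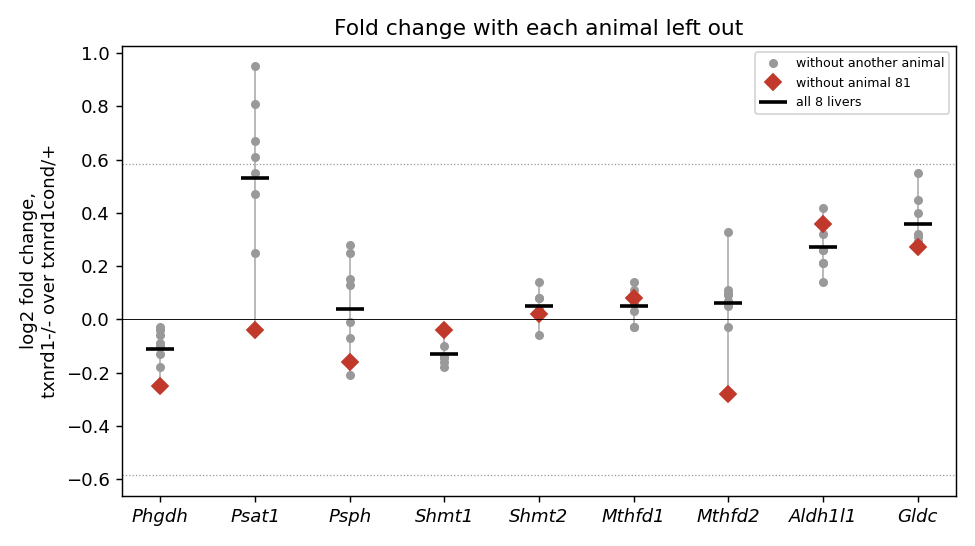
Log2 fold change, txnrd1-/- over txnrd1cond/+ (y axis), of each member gene with all 8 livers (black bar) and with each animal left out (points; red diamonds without animal 81). Psat1 ran between -0.04 and 0.95 and Mthfd2 between -0.28 and 0.33. Gldc and Aldh1l1 stayed above 0, and Phgdh and Shmt1 stayed below 0.

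No other listed gene of the pathway passed a threshold. Of 42 other genes listed for serine and glycine, the folate cycle and its outlets, and folate and serine carriers, 35 were measured, and 0 were called, passed the study's thresholds or reached an unadjusted p of at most 0.05. All 35 differed by less than 1.5-fold, with a median log2 fold change of 0.01. The smallest p belonged to Agxt, the peroxisomal alanine-glyoxylate aminotransferase (log2 -0.25, SE 0.12, limma unadjusted p = 0.068, adjusted p = 1), Srr, serine racemase (0.27, SE 0.14, unadjusted p = 0.078, adjusted p = 1), and Dmgdh, the mitochondrial dimethylglycine dehydrogenase (-0.27, SE 0.15, unadjusted p = 0.11, adjusted p = 1). Mthfd1l, the mitochondrial formate-releasing partner of Mthfd2, differed most (log2 0.55, SE 0.37, limma unadjusted p = 0.18, adjusted p = 1), and it passed the study's thresholds when animal 80 or animal 72 was left out (0.91 and 0.80). It was singled out after its values were seen, and over the livers it followed Psat1 (r = 0.82, exact permutation p = 0.0039, adjusted p = 0.078 over 20 pairs; rho = 0.93, p = 0.0022, adjusted p = 0.045), with r = 0.82 without animals 81 and 82.

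The mean log2 ratio of the ATF4 targets was 0.05, -0.11, -0.14 and 0.67 in txnrd1-/- animals 69, 72, 73 and 81, against 0.01, -0.09, -0.07 and -0.01 in txnrd1cond/+ animals 70, 71, 80 and 82, so animal 81 stood apart here as for Psat1. Of 16 measured, 2 passed the study's thresholds, both higher in txnrd1-/- livers, 0 were called and the median log2 fold change was 0.04. Asns, asparagine synthetase, had ratios of 1.23, 0.973, 1.04 and 2.54 in txnrd1-/- animals 69, 72, 73 and 81, against 0.804, 0.598, 1.06 and 0.488 in txnrd1cond/+ animals 70, 71, 80 and 82 (log2 0.92, SE 0.33, limma unadjusted p = 0.019, adjusted p = 1). Trib3, a pseudokinase induced by stress, had 1.31, 1.20, 0.901 and 3.59 in txnrd1-/- animals 69, 72, 73 and 81, against 0.910, 0.694, 0.566 and 1.03 in txnrd1cond/+ animals 70, 71, 80 and 82 (log2 0.95, SE 0.38, limma unadjusted p = 0.034, adjusted p = 1). Animal 81 was the highest for both, as it was for Psat1, and the groups overlapped. Asns was at 0.61 without animal 81, missed the p of those thresholds without animal 82 (log2 0.74), and missed both the p and the fold without animals 81 and 82 (0.43). Trib3 missed the p without animal 71 (0.89) or 80 (0.79) and fell short of 1.5-fold without animal 81 (0.53). Without animals 81 and 82 together it still passed both (log2 0.66, limma unadjusted p = 0.015).

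Over the livers Psat1 and Asns had r = 0.86 (exact permutation p = 0.01, adjusted p = 0.10; rho = 0.76, p = 0.037, adjusted p = 0.25). With the mean of each genotype taken out r was 0.94. It was 0.61 without animal 81 alone and 0.31 without animals 81 and 82, so the size of that relation depended on those livers. Atf4 itself had a log2 fold change of -0.06 (SE 0.19, limma adjusted p = 1).

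Of 18 measured Nrf2 targets, 12 passed the study's thresholds, all higher in txnrd1-/- livers, 7 were called, and the median log2 fold change was 1.01. The list includes the disrupted gene Txnrd1 itself (log2 -0.00), a mean of probe sets that did not run one way. The called genes were Cbr3, a carbonyl reductase (5.69), Gsta2 (3.83) and Gstm3 (1.83), which are glutathione S-transferases, the exporters Abcc4 (3.73) and Abcc3 (1.63), the quinone reductase Nqo1 (2.58), and Ugdh (1.72), which makes UDP-glucuronate. Those that passed the study's thresholds alone were Srxn1 (1.07), Gclc (1.05), Gstm1 (0.80), Me1 (0.69) and Gclm (0.67). Over this list the mean log2 ratio was 0.39, 0.32, 0.48 and 1.11 in txnrd1-/- animals 69, 72, 73 and 81. It was -0.83, -0.90, -0.92 and -1.13 in txnrd1cond/+ animals 70, 71, 80 and 82. Animal 81 was thus the highest on this list as well as on the ATF4 list. The list is known from earlier results of these livers and is no independent evidence of direction. The same 8 arrays that gave these differences gave no member gene past either threshold.

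**Figure D5:**
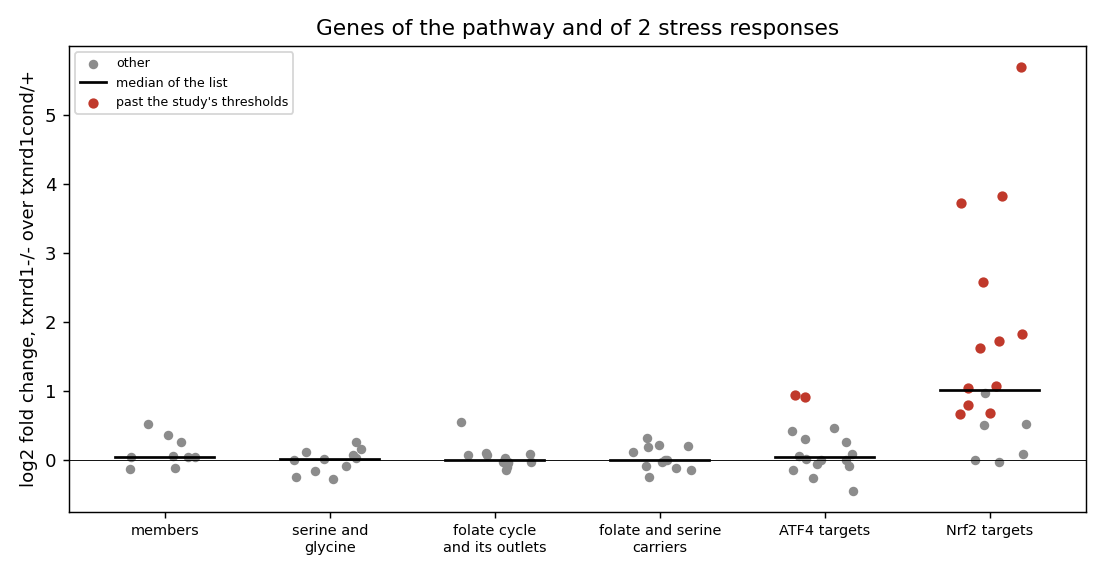
Log2 fold change, txnrd1-/- over txnrd1cond/+ (y axis), of the 9 member genes, of 3 lists of other pathway genes, and of ATF4 and Nrf2 targets; each point is 1 gene, horizontal position within a list is random, red points passed the study's thresholds and black bars are list medians. The members and pathway lists have medians between 0.00 and 0.05, and the Nrf2 list has 1.01.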

How the data were processed

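Groups came from the sample titles. Values are the linear ratios deposited by the authors. RMA appears in the submitters' processing notes (version not given in the sources used here) and GeneSpring in the study's methods. Array medians lie between 0.997 and 0.999, and 5 empty values stayed empty. The study's minimum signal cannot be applied to ratios. The file lists 45101 probe sets; without its 64 array controls, 34945 carry 1 symbol, 932 several and 9160 none. Symbols are from the platform annotation, updated through RefSeq GRCm38.p6.

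Log2 ratios were compared with limma 3.58.1 in R 4.3.3 (lmFit and eBayes, 2-sided, on 6 residual degrees of freedom), for all probe sets and all genes, with Benjamini-Hochberg adjustment over each. Code was tested on simulated data. Means ± SD are of ratios, and folds are of geometric means. Figures used Python 3.11.15 with matplotlib 3.10.9.

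Members and lists were chosen with earlier results of these data known. Named genes are all members, pathway genes past the study's thresholds or else the 3 with the smallest p, the 3 most like the serine mean, Txnrd1, and ATF4 and Nrf2 targets past those thresholds. List genes without a probe set of 1 symbol were not analysed here. Alternatives were 3 other scalings, 3 other treatments of variance or weight, a filter on spread, linear ratios, a floor of 0.1, the range of animal number as a covariate, the most variable probe set, and leaving out each animal; leaving out animals 81 and 82 together was added after seeing the data. Each animal is 1 array, so the number of arrays limits the precision.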

Additional observations from a re-analysis of the deposited data

Results flagged for a closer look

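In groups of 4 livers, a value was picked out where its gap to the nearest other was over Dixon's 95% critical share of the group's range. Of 18 groups tested on each scale, 2 log2 and 3 linear values were picked out, where chance gives about 1 in 20, and all are txnrd1cond/+ livers. Gldc in animal 80 stood at a log2 ratio of 0.40 (linear 1.32), above the other controls. Shmt1 in animal 82 stood at a log2 ratio of 0.15 (linear 1.11). Shmt2 in animal 71 stood at a linear ratio of 1.08.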

How the results depend on the processing

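Across all alternatives run, 0 member probe sets and 0 member genes were called, and 0 member probe sets passed the study's thresholds. The 315 alternative values include the counts of members and of other pathway genes, which were mostly 0. In 20 of them a gene's log2 fold change reversed direction. In 2 of them the count of other pathway genes past the study's thresholds moved. The median log2 fold change of the member genes was 0.05 in the main fit. It ran between -0.04 and 0.26 across the alternatives, so its sign changed as well. Other pathway genes past the study's thresholds numbered 0 to 1 with 1 animal left out, the 1 being Mthfd1l. With 1 animal left out, Psat1 ran between -0.04 and 0.95, Psph between -0.21 and 0.28, Shmt2 between -0.06 and 0.14, Mthfd1 between -0.03 and 0.14, and Mthfd2 between -0.28 and 0.33 (log2 fold change). Quantile normalization gave Psph -0.04, Shmt2 -0.00 and Mthfd1 -0.01, and array weights gave -0.04, -0.04 and -0.00. Without animals 81 and 82 the values were Psat1 -0.33, Psph -0.42, Mthfd1 -0.00 and Mthfd2 -0.23. The causes were not tested. Gldc (0.21 to 0.55) and Aldh1l1 (0.14 to 0.42) stayed above 0 in every alternative run. Phgdh (-0.25 to -0.01) and Shmt1 (-0.18 to -0.01) stayed below 0 in every alternative run.

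Of all genes, 15 were called with all livers, against 1 without moderated variance, 41 with the spread filter and 8 with the number range as covariate. Array weights gave 20 and quantile normalization 17. The count was 13 without animal 80, 12 without animal 82, 9 without animal 72, 8 without animal 70 or 71, and 7 without animal 69 or 81. It was 4 without animal 73 or without animals 81 and 82. Of probe sets, 12 were called, against 0 without moderated variance (182 still passed the study's thresholds), 59 with the spread filter, 19 with array weights, 3 to 8 with any 1 animal left out, and 4 without animals 81 and 82. With 4 arrays per genotype, the Psat1 difference could not be bounded within 2-fold.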
